A study of Blattella germanica with 8 samples.

Results

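The serine carboxypeptidase gene cluster of the conglobate gland is a run of 10 consecutive identifiers, BGER001851-RA to BGER001860-RA, out of the 30784 rows of the count table. They were taken by identifier and matched in order to the genes Bger_00080 to Bger_00089, by which they are called here. Cockroach males have several accessory sex glands, of which the conglobate gland is one, and their secretions go into the spermatophore, the packet in which sperm are handed to the female. The gland was dissected from virgin males of Blattella germanica at adult day 7, the age given in the series' design text and in the methods (a legend of the study gives day 4). The dsILP8 group (n = 4 libraries) had been injected with 2 µg of dsRNA against BgILP8, an insulin-like peptide of this gland. The Control group (labelled dsMock, n = 4 libraries) had received the same amount of a heterologous dsRNA from a baculovirus polyhedrin gene. Males of both groups were injected as nymphs of instar 6, the last before the adult, at day 7, so no library comes from an animal without dsRNA. RNAi lowers the target without removing it. No source says how many glands made up a library or whether libraries came from separate males, so the p-values cover the spread from library to library, which may be technical.

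Serine carboxypeptidases are hydrolases that use an active-site serine to release amino acids from the carboxyl end of peptides. Most members of this family enter the secretory pathway through a signal peptide and work in lysosomes, vacuoles or secretions. The CPVL proteins take their name from the vitellogenic carboxypeptidase of mosquitoes, and related enzymes are known from the venoms of bees and wasps. Proteases and their inhibitors are common in the accessory gland secretions of insects, as described in Drosophila.

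All 10 genes have a locus tag with the same number on scaffold PYGN01000035.1 of assembly Bger_1.1. They lie side by side between positions 2306687 and 2358357, a stretch of 51671 bp, with gaps of 421 to 4200 bp from each gene to the next. The annotated spans, introns included, ran from 704 bp for Bger_00087 to 9253 bp for Bger_00080. The nearest annotated gene before the cluster lies 39648 bp away and the nearest after it 1785 bp away. Bger_00080, Bger_00081 and Bger_00082 were annotated by similarity to venom serine carboxypeptidases of other insects, and the other 7 genes as CPVL or similar to it. A signal peptide is annotated for Bger_00086, Bger_00088 and Bger_00089, all of the CPVL kind, and not for the remaining 7 genes. This is the study's prediction from the protein sequences. Whether each model is complete at its start was not examined here. Strand, exons and protein sequences of these models were not used here.

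The libraries held 9060546 to 11461055 counts. BgILP8 had 57.3 to 113 CPM in dsILP8 libraries, against 1824 to 2849 CPM in Control libraries, where CPM is the count of a gene scaled to the same total in every library. The dsILP8 replicate 1 library stood apart from the rest: its correlations of log2(CPM + 1) with the other 7 libraries were 0.933 to 0.946, whereas those among the other 7 were 0.969 to 0.981. The carboxypeptidases were counted 22615 to 477302 times per gene and library, so counting error was at most 0.665% of a value, and the spread described here lies far above it.

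Carboxypeptidase reads made up a large part of the gland libraries. All 10 genes ranked between 4 and 23 among all genes of the table by mean CPM over the 8 libraries. They come from the study's list of gland genes, which was made with the same Control libraries. Their high level was thus known when they were chosen and is not an independent result. Together they held 8.80%, 12.2%, 13.3% and 14.6% of all counts in dsILP8 replicates 1 to 4, against 11.1%, 16.2%, 12.4% and 13.1% in Control replicates 1 to 4. The lowest value was that of dsILP8 replicate 1 and the highest that of Control replicate 2, and the groups overlapped with and without dsILP8 replicate 1. In whole glands, fewer cells that express a gene and less of its RNA per cell cannot be told apart. The genes annotated with a signal peptide accounted for 1.67% to 2.99% of all counts in dsILP8 and 2.37% to 4.18% in Control libraries. The lowest of these values was that of dsILP8 replicate 1, and the other dsILP8 libraries began at 2.60%.

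The venom carboxypeptidase-like genes at the start of the run took most of the cluster's reads. These shares are not scaled for transcript length, so they say how reads were distributed and not how many transcripts each gene gave. Bger_00081 took the largest share in all 8 libraries, with 28.5% ± 1.05 in dsILP8 and 28.2% ± 1.88 in Control (SD, n = 4 each). Bger_00080 came second in all 8, with 19.1% ± 0.731 in dsILP8 and 19.5% ± 0.624 in Control (SD, n = 4 each). The positions of the other 8 genes were not fixed: Bger_00082 moved between the third and the ninth place, and Bger_00083, Bger_00084 and Bger_00086 each took the tenth place in at least 1 library. The 3 genes annotated with a signal peptide held 20.4% ± 2.27 of the cluster in dsILP8 and 23.3% ± 2.71 in Control (SD, n = 4 each). The widest 95% Wilson interval of a share in 1 library was ± 0.0893 percentage points, which covers counting error only.

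**Figure D1:**
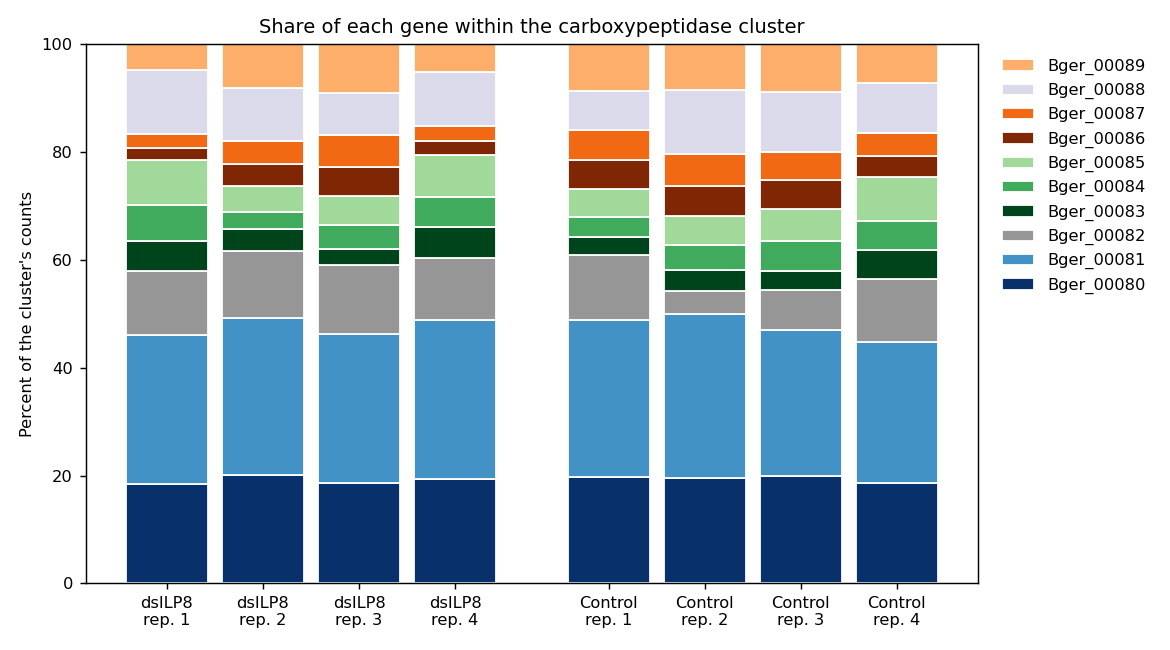
Percent of the cluster's counts (y axis) held by each of the 10 genes in each library (x axis), dsILP8 replicates on the left and Control replicates on the right. The Bger_00080 and Bger_00081 segments keep their size, Bger_00082 is narrow in Control replicates 2 (4.39%) and 3 (7.35%), and Bger_00086, Bger_00087 and Bger_00089 are narrow in dsILP8 replicates 1 and 4.

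Bger_00080 (BGER001851-RA) and Bger_00081 (BGER001852-RA), which open the cluster, moved together. Bger_00081 had 24309, 35609, 36532 and 43073 CPM in dsILP8 replicates 1 to 4, against 32157, 49114, 33650.4 and 34384 CPM in Control replicates 1 to 4. Bger_00080 had 16176, 24514, 24788 and 28095 CPM in dsILP8 replicates 1 to 4, against 21996, 31545, 24789 and 24344 CPM in Control replicates 1 to 4. Both genes were lowest in dsILP8 replicate 1 and highest in Control replicate 2, and their groups overlapped. The reads of Bger_00080 over those of Bger_00081 stayed between 0.642 and 0.737 in the 8 libraries.

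Bger_00082 (BGER001853-RA), the last of the venom carboxypeptidase-like genes, followed another course. It had 10492, 15254, 17009 and 16612 CPM in dsILP8 replicates 1 to 4, against 13483, 7095, 9141 and 15244 CPM in Control replicates 1 to 4. Control replicates 2 and 3 were the lowest of all 8 libraries, and the remaining Control libraries lay within the dsILP8 range. Its share of the cluster was 11.4% to 12.8% in the dsILP8 libraries and 12.1%, 4.39%, 7.35% and 11.6% in Control replicates 1 to 4.

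Bger_00083, Bger_00084 and Bger_00085 (BGER001854-RA to BGER001856-RA), the first CPVL-like genes of the run, were high in dsILP8 replicate 4. Bger_00085 had 7263, 5855, 6960.1 and 11407 CPM in dsILP8 replicates 1 to 4, against 5580 (5579.6), 8936, 7519 and 10546 CPM in Control replicates 1 to 4. Bger_00083 had 4947, 5023, 3903 and 8256 CPM in dsILP8 replicates 1 to 4, against 3775, 6029.8, 4536 and 7234 CPM in Control replicates 1 to 4. For both genes dsILP8 replicate 4 and Control replicate 4 were the highest libraries of their groups. Bger_00084 ran from 3931 to 8074 CPM in dsILP8 and from 4136 to 7506 CPM in Control libraries.

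Bger_00086 (BGER001857-RA), Bger_00087 (BGER001858-RA) and Bger_00089 (BGER001860-RA) had the largest ratios of the highest to the lowest library, an order that rested on dsILP8 replicate 1. Bger_00086 had 2068, 4991, 7363 and 3773 CPM in dsILP8 replicates 1 to 4, against 6067, 8789, 6668 and 5305 CPM in Control replicates 1 to 4. Bger_00087 had 2250.4, 5177, 7677 and 3956 CPM in dsILP8 replicates 1 to 4, against 6238, 9542, 6528 and 5426 CPM in Control replicates 1 to 4. Bger_00089 had 4288, 10003, 12132 and 7477 CPM in dsILP8 replicates 1 to 4, against 9681, 13815, 11091 and 9442 CPM in Control replicates 1 to 4. In all 3 genes dsILP8 replicates 1 and 4 were the lowest of the 8 libraries, while dsILP8 replicate 3 lay above 3 of the 4 Control libraries. Bger_00088 (BGER001859-RA), which lies between Bger_00087 and Bger_00089 and is annotated with a signal peptide, did not share this order. It ranged from 10356 to 14780 (14779.6) CPM in dsILP8 and from 7958 to 19244 CPM in Control libraries.

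**Figure D2:**
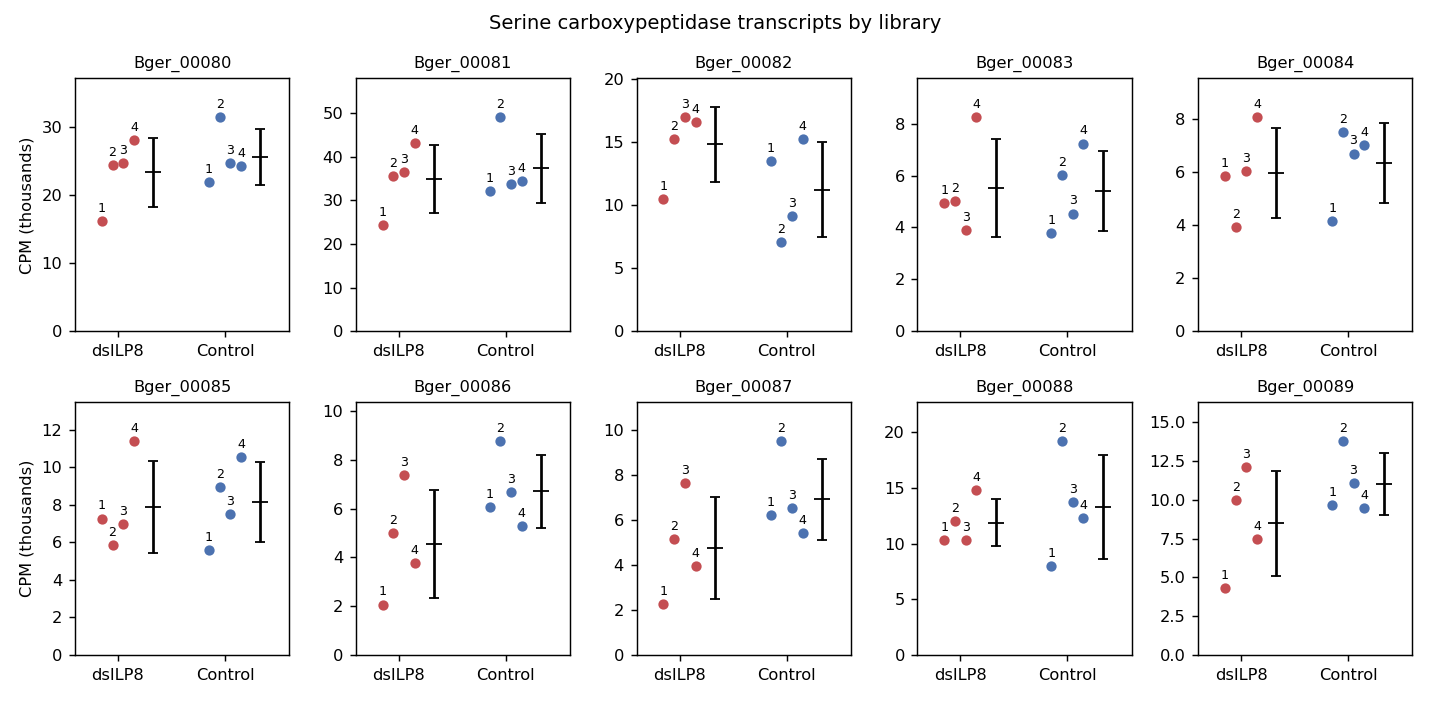
CPM divided by 1000 (y axis, linear from 0) of each gene, with dsILP8 libraries on the left and Control libraries on the right of each panel. Numbered points are the replicates, and the black mark with bars gives the mean ± SD of 4 libraries. No gene has groups that do not overlap, and Bger_00086 and Bger_00087 show the same arrangement of the 8 libraries.

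The highest library exceeded the lowest 1.95-fold for Bger_00080 and 4.25-fold for Bger_00086, with a median of 2.29-fold over the 10 genes. Among the 741 genes of the table with a mean of at least 100 CPM and a count in every library, the median was 1.43-fold. Only 6.21% of these genes had a larger ratio than Bger_00086, and 17.7% a larger one than Bger_00080. The library dsILP8 replicate 1 was the lowest for 5 of the 10 genes. Without it the ratio was 1.43-fold for Bger_00080, 2.33-fold for Bger_00086, 2.41-fold for Bger_00087 and 1.85-fold for Bger_00089. The largest was then that of Bger_00088 with 2.42-fold, and Bger_00082 with 2.40-fold lay above Bger_00086. The ratios without this library had a median of 2.121-fold over the 10 genes and of 1.33-fold over the 731 other abundant genes.

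None of the 10 genes passed the test between dsILP8 and Control glands. With edgeR's quasi-likelihood test over the 14444 genes with enough counts, 0 of 10 passed a false discovery rate (FDR) of 0.05 with a log2 fold change beyond 1, where 0.00692% of all genes tested did. All 10 had passed the filter on low counts. Without adjustment, 0 of 10 passed the 0.05 level with edgeR, where 3.93% of all genes tested did. The same count was 0 with DESeq2, where 2.21% of all genes did, and 1 with limma-voom, where 3.2% did. The gene that did so with limma-voom was Bger_00086. Without dsILP8 replicate 3 it was 3 of 10 with edgeR, namely Bger_00086, Bger_00087 and Bger_00089, where 4.75% of all genes passed. These 3 genes varied nearly together (pairwise Pearson r 0.985 to 0.997 over the 8 libraries), so they are not 3 separate results. No gene of the cluster passed the FDR with DESeq2 or limma-voom. For none of the 10 did every dsILP8 library lie above every Control library (1.42% of all genes tested) or below it (0.907%).

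Of the 10 log2 fold changes 9 were below 0, with a median of -0.15, beside a median of -0.00445 over all genes tested. The lowest was that of Bger_00086, -0.59 (standard error 0.330, edgeR FDR = 0.998). Bger_00087 followed with -0.56 (standard error 0.327) and Bger_00089 with -0.41 (standard error 0.277). Bger_00082 had the only positive value, 0.34 (standard error 0.266, edgeR FDR = 0.998). These values depended on single libraries. Without dsILP8 replicate 1 the log2 fold change was -0.34 for Bger_00086, -0.32 for Bger_00087 and -0.18 for Bger_00089, and 7 of the 10 values were below 0. Without dsILP8 replicate 3 it was -0.95, -0.93 and -0.66 for the same 3 genes, all at an FDR of 0.999 in edgeR. The count below 0 was 6 of 10 without dsILP8 replicate 2 and also without Control replicate 2. Some of the 10 genes varied nearly together, so this count does not rest on 10 separate values. The share of all genes tested that lay below 0 was not computed. The median of the 10 was -0.09 without dsILP8 replicate 1, -0.28 without dsILP8 replicate 4, -0.27 without Control replicate 1 and -0.06 without Control replicate 2.

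**Figure D3:**
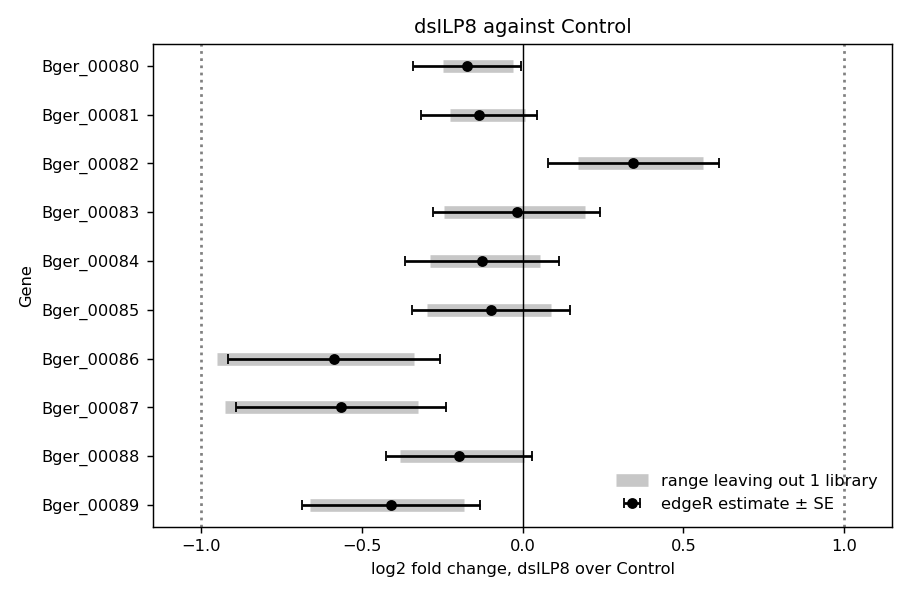
Log2 fold change of dsILP8 over Control (x axis) for each gene (y axis). Points are edgeR estimates with standard errors, grey bands span the estimates with 1 library left out, and dotted lines mark the threshold of 1 either way. Every estimate lies within the dotted lines, and Bger_00086, Bger_00087 and Bger_00089 lie furthest to the left.

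The make-up of the cluster did not separate the groups either. Of 10 exact two-sided permutation tests on the share of a gene within the cluster, 0 had a p under 0.05. The smallest p was that of Bger_00082, which held 12.2% ± 0.612 of the cluster in dsILP8 and 8.88% ± 3.68 in Control (SD, n = 4 each, exact permutation p = 0.143, 70 assignments, smallest possible p 0.0286). Bger_00086 held 3.64% ± 1.48 in dsILP8 and 5.08% ± 0.690 in Control (SD, n = 4 each, exact permutation p = 0.257). The 10 shares add up to 100%, so these tests are not independent of each other.

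Neighbours in the cluster varied together in some places and not in others. Over the 8 libraries the Pearson correlation of log2 CPM had a median of 0.33 over the 9 adjacent pairs and 0.41 over the 36 pairs that are not adjacent. Beside this, 1278 adjacent pairs of other identifiers with a mean of at least 10 CPM each had a median of 0.24. Of the 45 pairs, 5 had an r of at least 0.9, and 3 of them were adjacent, against 3.21% of the other adjacent pairs. An r below 0 was found for 14 pairs. With 1 library left out, 4 to 8 pairs reached 0.9 (6 when dsILP8 replicate 1 was the one omitted, 8 for dsILP8 replicate 4), and 12 to 16 were below 0. The median over the adjacent pairs was 0.51 without Control replicate 1 and 0.64 without Control replicate 2. All pairs share the same 8 libraries, and the 45 correlations are 1 family for the adjustment of p-values.

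The closest pair was Bger_00086 and Bger_00087, with a Pearson r of 0.997 (exact permutation p = 2.48e-05, the smallest that 8 libraries allow, adjusted p = 0.0011). Its Spearman rho was 1.00 (exact permutation p = 4.96e-05). Without the 2 libraries furthest from the median of the pair's first gene in identifier order, r was 0.995. After centring in each group r was 0.997. The 2 furthest libraries of the pairs below were chosen in the same way. The reads of Bger_00086 over those of Bger_00087 stayed between 0.919 and 1.02 while the level changed 4.25-fold for Bger_00086 and 4.24-fold for Bger_00087. These neighbours have short annotated spans of 802 bp and 704 bp and lie 908 bp apart. Whether they are separate genes or parts of 1 gene was not tested.

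Bger_00089 joined these genes although Bger_00088 lies between. Its r with Bger_00086 was 0.988 (exact permutation p = 9.92e-05, adjusted p = 0.00223) and its rho 0.929 (exact permutation p = 0.00223). Without the 2 furthest libraries r was 0.946, and without dsILP8 replicate 1 it was at least 0.967. Bger_00088 itself had an r of 0.300 with Bger_00087 and 0.334 with Bger_00089, neither of which passed the adjustment (adjusted exact permutation p = 0.781 and 0.710). Both values hung on single libraries, being -0.093 and 0.039 without Control replicate 2 and 0.509 and 0.482 without Control replicate 1.

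Bger_00080 and Bger_00081 had an r of 0.978 (exact permutation p = 0.000273, adjusted p = 0.00307) and a rho of 0.857 (exact permutation p = 0.0107). Without the 2 furthest libraries r was 0.929. After each gene was divided by the cluster's sum, however, the same pair had an r of 0.507, where Bger_00086 and Bger_00087 kept 0.996. Bger_00085 had an r of 0.903 with Bger_00084 (exact permutation p = 0.00335, adjusted p = 0.029) and of 0.895 with Bger_00083 (exact permutation p = 0.00387, adjusted p = 0.029). The rho of these pairs was 0.929 (exact permutation p = 0.00223) and 0.833 (exact permutation p = 0.0154). Without the 2 furthest libraries their r was 0.864 and 0.654. Bger_00083 and Bger_00084, which are adjacent, had an r of 0.654 over all 8 libraries (exact permutation p = 0.079, adjusted p = 0.216). Bger_00080 had an r of 0.748 with Bger_00086, 0.756 with Bger_00087 and 0.797 with Bger_00089 (adjusted exact permutation p = 0.213 each). Without dsILP8 replicate 1 these were 0.200, 0.267 and 0.282.

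The set of Bger_00083 to Bger_00085 and the set of Bger_00086, Bger_00087 and Bger_00089 did not follow each other. Bger_00085 and Bger_00086 are adjacent and had an r of -0.08 (rho -0.10, exact permutation p = 0.863 and 0.840). With 1 library left out this r ran from -0.301 to 0.117, so its sign was not settled. The summed reads of Bger_00086, Bger_00087 and Bger_00089 over those of Bger_00083 to Bger_00085 were 0.477, 1.36, 1.61 and 0.548 in dsILP8 replicates 1 to 4, against 1.63, 1.43, 1.30 and 0.814 in Control replicates 1 to 4. This ratio of reads, which is not scaled for transcript length, thus changed 3.42-fold (2.97-fold without dsILP8 replicate 1). Libraries of both groups were found at its low and its high end. These sets were formed after the values had been seen, and no test was run on them. Bger_00082 had an r between -0.50 and 0.07 with each of the other 9 genes over all 8 libraries. These values depended on Control replicates 2 and 3 and on dsILP8 replicate 1. Without both of these Control libraries, its r was 0.746 with Bger_00086, 0.744 with Bger_00087 and 0.814 with Bger_00089. It was lower with Bger_00083 (0.250), Bger_00084 (0.247), Bger_00085 (0.306) and Bger_00088 (0.449). In Bger_00082, Bger_00086, Bger_00087 and Bger_00089 the lowest library then left was dsILP8 replicate 1, and r without it as well was not computed. With only dsILP8 replicate 1 left out, the r of Bger_00082 was -0.674 with Bger_00086, -0.668 with Bger_00087 and -0.653 with Bger_00089. Without Control replicate 2 alone its r was 0.654 with Bger_00081, against -0.109 over all 8 libraries.

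**Figure D4:**
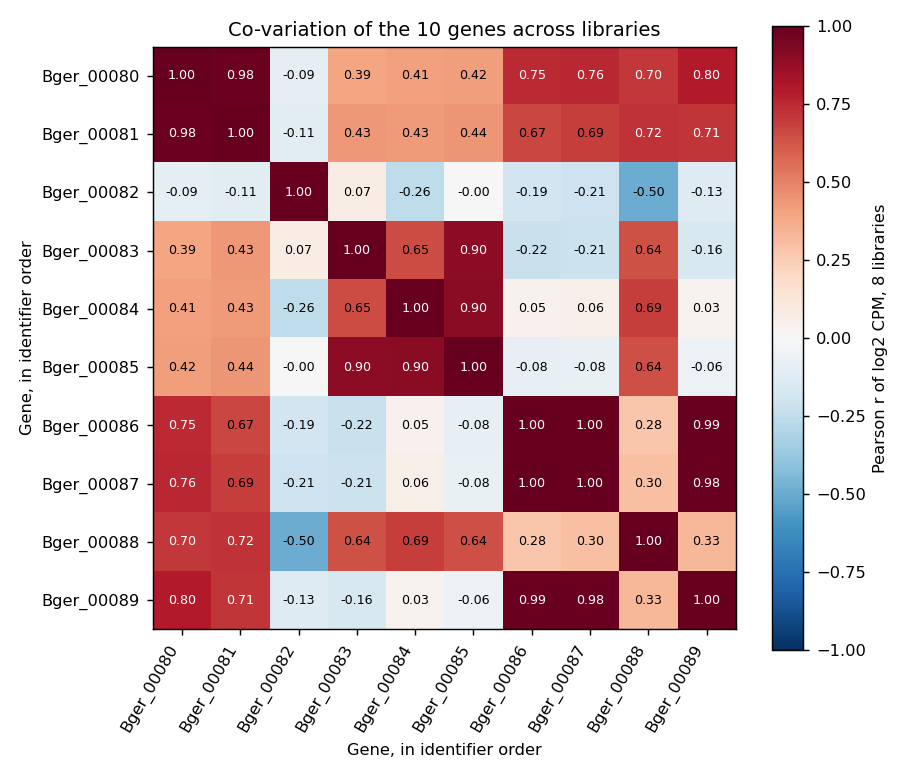
Pearson r of log2 CPM over 8 libraries for every pair of the 10 genes, in identifier order on both axes (red positive, blue negative). The darkest red cells mark Bger_00080 with Bger_00081 (0.98), Bger_00085 with Bger_00083 and Bger_00084 (0.90 each), and Bger_00086, Bger_00087 and Bger_00089 (0.98 to 1.00). Bger_00083 with Bger_00084 (0.65) is paler than Bger_00080 with Bger_00086, Bger_00087 and Bger_00089 (0.75 to 0.80). Bger_00082 is pale or blue, which depends on Control replicates 2 and 3 and on dsILP8 replicate 1. Without these Control libraries its r is 0.74 to 0.81 with Bger_00086, Bger_00087 and Bger_00089. With Bger_00083, Bger_00084, Bger_00085 and Bger_00088 it is then 0.25 to 0.45. With only dsILP8 replicate 1 left out, its r is -0.67 to -0.65 with Bger_00086, Bger_00087 and Bger_00089.

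Reads that map to several places add a fraction to each gene, so a value that is not whole shows that such reads were counted. Of the 80 values of the cluster 78 were not whole (97.5%), beside 19.1% of all values above 0 in the table. Among the 63 other genes with a mean of at least 10000 counts the share was 86.1%, so most of the difference from the whole table is also seen in other abundant genes. The exceptions were Bger_00085 in Control replicate 2 and Bger_00087 in dsILP8 replicate 1. How many reads were split, and between which genes, cannot be read from the counts, and the part of split reads in the near-equal values of Bger_00086 and Bger_00087 was not tested.

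High expression ended sharply before the cluster, whose own genes had been chosen from the study's list of gland genes. Of the 10 identifiers before it, 2 had no count in any library and 5 had a mean of at least 10 CPM, with a highest mean of 389.9 CPM for BGER001843-RA. The others of these 5 were BGER001842-RA (mean 152 CPM), BGER001844-RA (34.8 CPM), BGER001848-RA (10.8 CPM) and BGER001849-RA (53.6 CPM). The count table gives none of them a name. Of the 10 identifiers after it, 4 had no count, 5 had means up to 1.51 CPM, and 1 was abundant, BGER001861-RA, which directly follows Bger_00089 in identifier order.

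BGER001861-RA was present at 2 very different levels. It had 5784, 4251, 150 (150.3) and 10160 (10159.9) CPM in dsILP8 replicates 1 to 4, against 108, 63.6, 74.5 and 4289 CPM in Control replicates 1 to 4. Libraries of both groups were found at either level, and its edgeR estimate was 2.03 on the log2 scale, with a standard error of 1.51 and an FDR of 0.998. Without Control replicate 4 the estimate was 5.91, with a standard error of 1.21 and an edgeR FDR of 1.00. The share of the cluster held by Bger_00086, Bger_00087 and Bger_00089 together was 9.78%, 16.5%, 20.5% and 10.5% in dsILP8 replicates 1 to 4, against 19.8%, 19.9%, 19.5% and 15.4% in Control replicates 1 to 4. The 4 libraries with at least 4251 CPM of BGER001861-RA were thus the same 4 that had the lowest shares of these 3 genes, and they also had the highest shares of Bger_00083. Since the libraries fall into separate clusters for BGER001861-RA, no correlation was computed, and this relation was noticed in the values and not tested.

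A similar coincidence was seen for Bger_00082. BGER001846-RA, which lies 5 identifiers before the cluster, had 4, 3, 3 and 3 counts in dsILP8 replicates 1 to 4, against 4, 243, 105 and 2 counts in Control replicates 1 to 4. Control replicates 2 and 3 were also the only libraries in which Bger_00082 held less than 11.4% of the cluster. BGER001846-RA was chosen for this after its values were seen, and the relation rests on 2 libraries of 1 group.

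**Figure D5:**
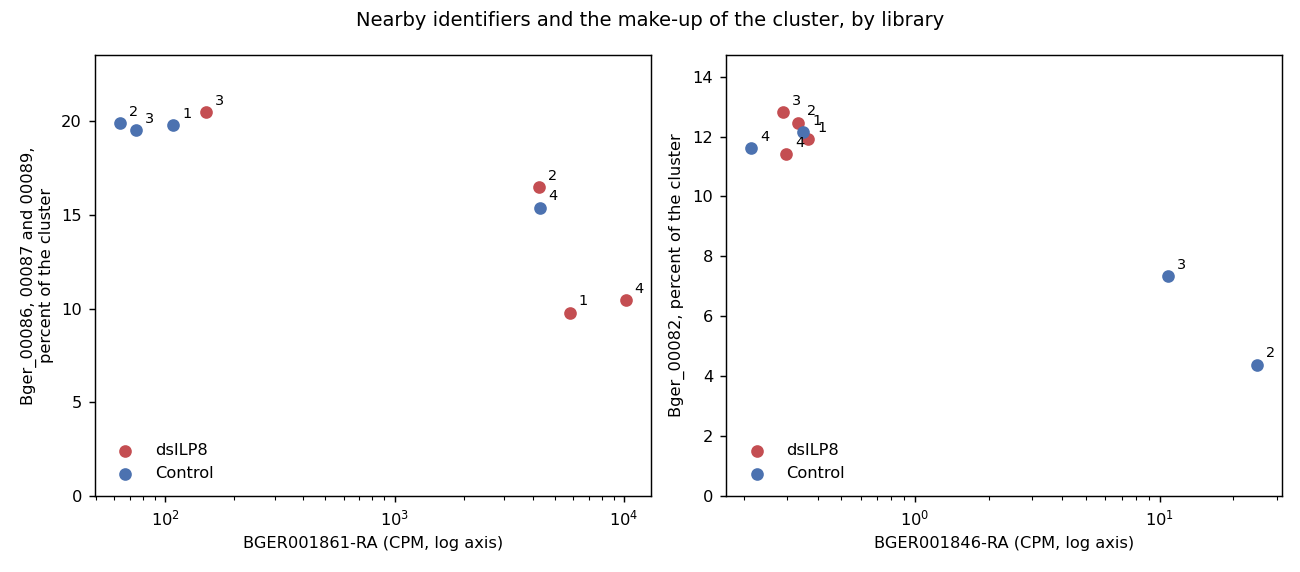
CPM of BGER001861-RA (left) and BGER001846-RA (right) on log axes against the percent of the cluster held by Bger_00086, Bger_00087 and Bger_00089 together (left) and by Bger_00082 (right); numbered points are the dsILP8 and Control replicates. On the left, 4 libraries of both groups lie low at 4251 CPM or more, and on the right Control replicates 2 and 3 lie apart from the other 6 libraries.

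Outside the cluster, the genes whose log2 CPM was most like that of the 10 genes summed, among 731 other genes with a mean of at least 100 CPM, were BGER012051-RA (Pearson r 0.966), BGER015271-RA (0.961) and BGER005019-RA (0.931) over the 8 libraries. They were picked as the highest of many, so no p is given, and without dsILP8 replicate 1 their r was 0.917, 0.896 and 0.837. BGER015271-RA had 304, 439, 424 and 448 CPM in dsILP8 replicates 1 to 4, against 364, 484, 409 and 437 CPM in Control replicates 1 to 4, with the same lowest and highest library as the cluster. The count table pairs none of these identifiers with a name, and other serine carboxypeptidases of the genome could not be followed for the same reason.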

How the data were processed

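The authors trimmed the reads of 8 stranded mRNA libraries with Trimmomatic, mapped them with HISAT2 to assembly Bger_1.1 and counted them with featureCounts. The deposited values are expected counts per transcript identifier, in which a read with several map positions adds a fraction to each. They are not scaled. Whether strand was used in counting, and which gene models, was not stated in these sources.

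Counts were rounded to whole numbers, and a gene had to be above zero in at least 4 libraries, which left 14444 genes. These were tested with the quasi-likelihood test of edgeR 4.0.16 in R 4.3.3, with TMM normalization and p-values adjusted by Benjamini-Hochberg. DESeq2 1.42.0 and limma 3.58.1 (voom) were alternatives. CPM and shares used the unrounded counts. Standard errors are the fold change over the square root of F. Figures were drawn with matplotlib 3.10.9.

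Identifiers were matched in order to the study's list of gland genes. After 1 common scale, no Control level differed over 1.1-fold from the level listed there. Positions are those of the locus tags with the same number and protein in the annotation of Bger_1.1.

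All 10 genes are named, together with BgILP8, nearby identifiers with a mean of at least 10 CPM and the 3 genes most like the cluster. BGER001846-RA (mean 4.71 CPM) was named outside this rule, after its values had been seen. Members and lists were chosen with earlier results of these data known. No replicates agreed within counting noise, so none were merged, which does not show that they came from separate males.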

Additional observations from a re-analysis of the deposited data

Results flagged for a closer look

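Of 48 groups of 4 libraries searched for a library far from the others, 4 exceeded the 95% limit of Dixon's ratio for a group of that size, where chance gives about 1 in 20 groups. All 4 lay in the Control group. Control replicate 2 stood above the other Control libraries in Bger_00081 (49114 CPM), with a gap to the next library of 0.869 of the whole range. The same ratio was past the limit for Control replicate 4 in BGER001861-RA (4289 CPM, ratio 0.989), in the share of the cluster held by Bger_00083 (5.51%, ratio 0.843) and in that held by Bger_00086 (4.04%, ratio 0.929).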

How the results depend on the processing

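The count of carboxypeptidases called stayed at 0 in all 18 alternative fits, leave-one-out fits included. Among all genes tested, 1 was called with edgeR as reported, 3 with DESeq2 and 2 with robust dispersion. With the replicate number as a block it was 2 among all genes and 0 of the 10 genes. An unadjusted p under 0.05 was then found for 3 of the 10, where 2.4% of all genes had one. They were Bger_00086, Bger_00087 and Bger_00089, which varied nearly together and are not separate results. Libraries with the same replicate number did not resemble each other closely (correlations of same-numbered deviations -0.0552, -0.0965, 0.0482 and 0.141). The deposited columns carry other numbers, and a pairing by those was not tested, so a pairing is not excluded. Of 340 alternative values 309 kept their direction and side of the threshold or stayed within the spread. All 23 changes of sign came from leaving out 1 library and concern values that no fit called. The log2 fold change then ran from -0.23 to 0.0077 for Bger_00081, -0.24 to 0.20 for Bger_00083, -0.29 to 0.053 for Bger_00084, -0.30 to 0.087 for Bger_00085 and -0.38 to 0.0058 for Bger_00088. The difference in share of the cluster ran from -0.342 to 1.05 percentage points for Bger_00081, -0.339 to 0.805 for Bger_00084, -0.204 to 0.997 for Bger_00085 and -0.872 to 0.724 for Bger_00088. Without the most abundant gene in the denominator the cluster held 14.9% of counts in dsILP8 and 16.5% in Control, since the total is then smaller, and leaving out 1 library gave 11.4% to 13.4% and 12.2% to 13.9%. The median r of adjacent pairs was 0.206 after each gene was divided by the cluster's sum, and 0.243 to 0.638 with 1 library left out, highest without Control replicate 2 and 0.509 without Control replicate 1; the cause was not tested. Division by coding length was not run because coding lengths were not used here.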
